A study of Mus musculus with 26 samples.

Results

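Mst-1 overexpression was examined in mouse left ventricles labelled as knocked out for galectin-3, by setting the 5 libraries labelled Mst1Gal3 against the 8 labelled Gal3Ko over all 15249 genes of the deposited count table. These 13 libraries were drawn from 26 in the series. Both groups came from C57BL6 mice with the Gal-3 knock out, and Mst1Gal3 mice carried Mst-1 overexpression in addition, so the galectin-3 genotype was shared and only Mst-1 differed by the labels. The remaining libraries, 6 wild-type (wt) and 7 with Mst-1 overexpression alone (MstTg), were used for the same contrast in mice with galectin-3. The design text calls the Mst-1 mouse a dilated cardiomyopathy model. The promoter that drives Mst-1, the age and sex of the mice and the date of collection are not stated in the labels, nor is it said that each replicate was a separate mouse, so p-values measure only the spread between these samples, which may be technical.

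Mst-1, encoded by Stk4, is a kinase of the Hippo pathway. It activates the kinases Lats1 and Lats2, which phosphorylate the coactivators YAP and TAZ and hold them outside the nucleus, where they cannot assist the TEAD transcription factors. In heart muscle Mst-1 is known for promoting death of muscle cells, and its overexpression gives a thin, dilated ventricle. Galectin-3, encoded by Lgals3, is a lectin that binds sugars on cell surfaces and matrix, is produced largely by macrophages and is known for its association with fibrosis. The ventricle is a mixture of muscle cells, fibroblasts, vessel cells and macrophages. In RNA of whole tissue, fewer cells of a type and less RNA per cell cannot be told apart.

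Levels are CPM, read counts scaled to a common library size with edgeR's TMM factors. A gene was called when its adjusted p from edgeR's quasi-likelihood test (Benjamini-Hochberg over 15249 genes) was under 0.05, and changes are log2 fold changes ± SE of Mst1Gal3 against Gal3Ko. Stk4 (GRCm38 chromosome 2, 164070322 to 164155524) stood at 978, 1168, 955, 839.6 and 944 CPM in Mst1Gal3 replicates 1 to 5. In Gal3Ko it ran from 21.03 to 25.9 CPM with a median of 22.9. The groups did not overlap, and Stk4 was 42.0-fold higher in Mst1Gal3 (log2 fold change 5.39 ± 0.07, adjusted p = 1.13e-31). Lgals3 (chromosome 14, 47367751 to 47386160) stood at 2.54, 3.58, 4.13, 3.88 and 5.43 CPM in the 5 Mst1Gal3 libraries and from 1.47 to 2.74 CPM with a median of 2.16 in Gal3Ko. These ranges overlapped, and Lgals3 was higher in Mst1Gal3 by 0.86 ± 0.15 (adjusted p = 1.18e-05). Its level was 50.9 to 60.0 CPM in MstTg and 0.878 to 2.41 in wt, so the gain of Lgals3 that accompanied Mst-1 outside the knockout was 5.08 against 0.86 within it (difference -4.22 ± 0.21, adjusted p = 1.32e-14). Without Mst-1, the level of Lgals3 in Gal3Ko was not below that in wt, so there the counts do not check the knockout label. Galectin-3 protein was not measured, and transcripts counted to Lgals3 remained in the knockout.

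Library totals were 22329059 to 26218867 counts in Mst1Gal3 and 18580405 to 32663735 in Gal3Ko, and no difference was found by an exact permutation test (two-sided, p = 0.727). Genes of the mitochondrial genome took 18.7% ± 2.95 (SD, n = 5) of counts in Mst1Gal3 and 33.0% ± 3.64 (n = 8) in Gal3Ko (exact permutation test, p = 0.00155, adjusted p = 0.00207 over 4 measures). With plain library totals in place of TMM factors, the median log2 fold change of all genes moved from 0.00519 to 0.238. Lists whose direction or whose smaller falls depend on that choice are named where they occur. The atrial muscle genes Myl4, Myl7 and Sln together exceeded 30 CPM in Gal3Ko replicates 4, 5 and 8 and in Mst1Gal3 replicate 3, against 2.27 to 12.6 CPM in the other 9 libraries.

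Of the 15249 genes, 8013 were called (52.5%). There were 4108 higher (26.9%) and 3905 lower (25.6%) in Mst1Gal3. Without TMM factors the split was 7374 higher and 1929 lower. Many changes were small: 4401 called genes differed by under 1.5-fold, and 1675 (11%) by at least 2-fold, of which 1093 were higher and 582 lower. At 8-fold or more, 155 genes were higher and 37 lower. The CPM of the 2 groups did not overlap for 4735 genes (31.1%). With so many genes called, the share of a gene list that was called is read below against these percentages.

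**Figure D1:**
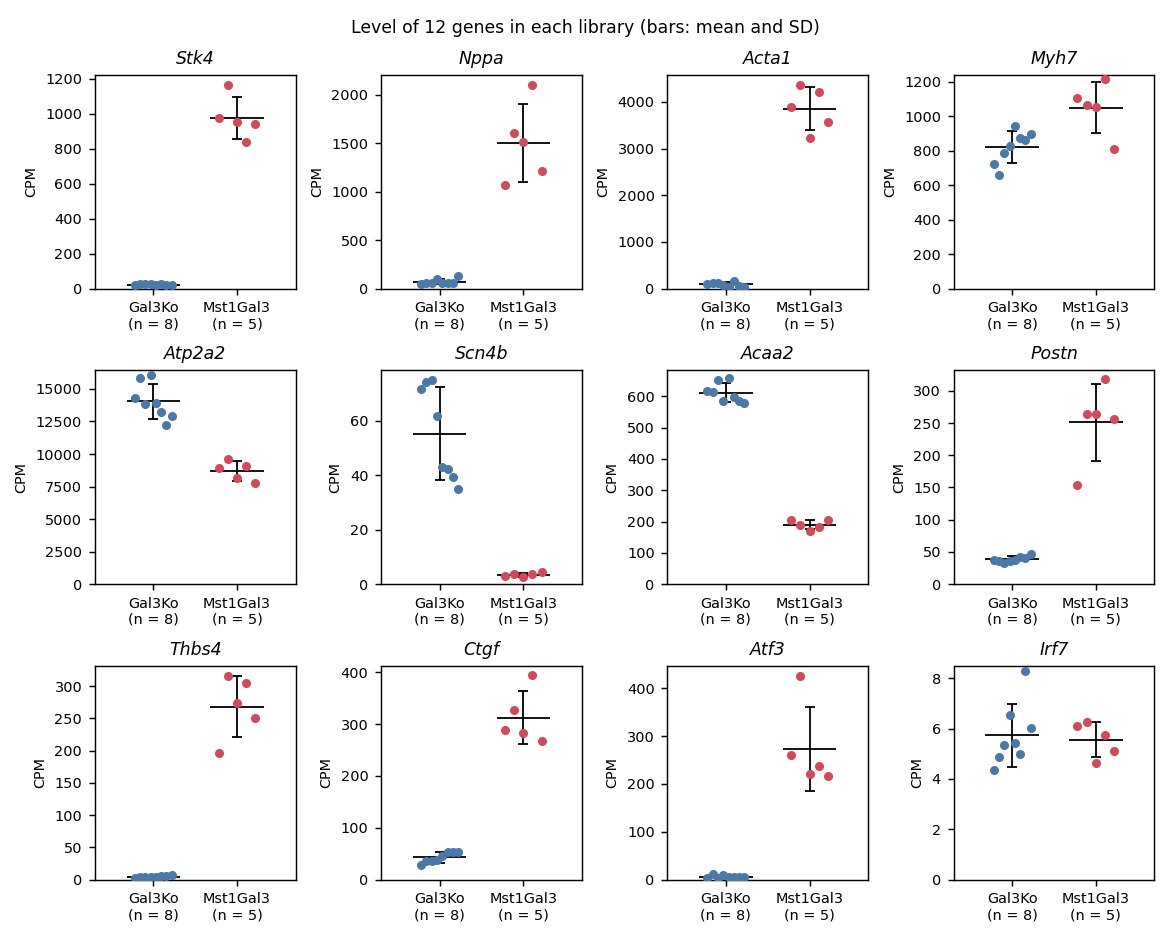
CPM (linear axes from 0) of 12 genes in each of the 8 Gal3Ko (blue) and 5 Mst1Gal3 (red) libraries, with the mean and SD as bars. Stk4, Nppa, Acta1, Scn4b, Acaa2, Postn, Thbs4, Ctgf, Atf3 and Atp2a2 separated into non-overlapping groups, whereas Myh7 and Irf7 overlapped.

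Genes that the fetal and the overloaded ventricle express were higher in Mst1Gal3. Of the 14 listed, 13 rose and none fell, with a median log2 fold change of 2.05 over the list against 0.00519 over all genes. Nppa, which encodes atrial natriuretic peptide, was at 1071, 1604, 1506, 2103 and 1217 CPM in Mst1Gal3 and from 47.1 to 129 CPM with a median of 61.1 in Gal3Ko. That is a 21.1-fold rise (4.40 ± 0.23, adjusted p = 5.26e-14), with every Mst1Gal3 library far above every Gal3Ko library. Nppb, the gene of brain natriuretic peptide, rose less (1.89 ± 0.16, 115 ± 25.4 to 426 ± 83.5 CPM). Acta1, the actin of skeletal and fetal heart muscle, was at 3885, 4368, 3236, 4209 and 3575 CPM against from 40.9 to 172 CPM with a median of 93.7 in Gal3Ko. Its 41.8-fold rise (5.39 ± 0.35, adjusted p = 4.72e-12) was as large in log2 terms as that of Stk4 itself.

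Other members of that list encode proteins that sit on the sarcomere or sense its stretch. Fhl1, a LIM-domain protein of the titin region, rose from 83.5 to 1131 CPM (3.76 ± 0.07, adjusted p = 1.1e-27). Xirp2 and Xirp1, actin-binding proteins of the intercalated disc, rose by 3.59 and 1.89, and the ubiquitin hydrolase gene Uchl1 rose by 4.42. Ankrd1, a stretch-responsive titin-binding protein and a YAP target, rose from 595 ± 92.6 to 2376 ± 365 CPM (1.998 ± 0.11). Myh7, the slow fetal myosin heavy chain, was the exception. It stood at 1104, 1064, 1053, 1214 and 812 CPM in Mst1Gal3 and from 657 to 944 CPM with a median of 847 in Gal3Ko, ranges that overlapped, and it was not called (0.35 ± 0.29, adjusted p = 0.322). In a fit of the 13 libraries alone Myh7 was called (0.37, adjusted p = 0.00178, edgeR). The adult myosin Myh6 did not pass the test (-0.11 ± 0.08, adjusted p = 0.299) at 28178 ± 1974 and 26161 ± 2684 CPM.

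The 10 largest rises, among called genes that averaged at least 1 CPM and did not overlap between groups, were of genes at or under 1 CPM on average in Gal3Ko. Mybph, a relative of cardiac myosin-binding protein C, had 0 to 3 counts per library in Gal3Ko and 713 to 1216 counts in Mst1Gal3, or 48.2, 34.4, 35.8, 30.1 and 29.7 CPM. Atp1b4, a member of the sodium pump beta-subunit family expressed in muscle, had 0 to 2 counts against 195 to 262 counts. The fitted log2 fold changes of 9.07 and 8.33 rest on so few control counts that their size is loose, although the separation is not. Muc15, a membrane mucin, rose by 8.07, the lectin-like Chodl by 7.66 and the carboxylesterase gene Ces5a by 7.04. Without Gal3Ko replicate 8, the control with the highest Chodl level, the Chodl estimate was 8.51, and without Gal3Ko replicate 1 that of Atp1b4 was 8.94. Tdrd9, an RNA helicase best known in the germ line, rose by 6.78 and tenomodulin (Tnmd), a tendon protein, by 6.60. The glutamate receptor subunit Grin2a and Syndig1, an AMPA receptor partner, both known from synapses, rose by 6.56 and 6.55. Shisa3 (6.55), an inhibitor of Wnt and FGF signalling, rested on firmer control counts (15 to 31 counts) and went from 0.9996 ± 0.270 to 92.7 ± 8.26 CPM (adjusted p = 4.71e-30).

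The 10 largest falls included transporters and channels. Lgi1, a secreted protein that organises potassium channels and synaptic receptors, fell from 5.28 ± 0.912 to 0.127 ± 0.0742 CPM (-5.33 ± 0.26). The muscle chloride channel Clcn1 (-5.001), the organic cation transporter Slc22a3 (-4.82) and the water channel Aqp4 (-4.66) fell. So did Epn3 (-4.14), Scn4b (-4.01), Lrrc4b (-3.99), Cacng6 (-3.97) and the acyl-CoA synthetase Acsl6 (-3.92). Scn4b, a sodium channel beta subunit, was at 2.93, 3.67, 2.57, 3.62 and 4.32 CPM in Mst1Gal3 and from 34.9 to 74.9 CPM with a median of 52.2 in Gal3Ko. Ogdhl, an oxoglutarate dehydrogenase-like gene on chromosome 14, met the same rule but was uneven among the controls. It was at 96.8 and 83.1 CPM in Gal3Ko replicates 2 and 3 and at 1.32 to 3.53 CPM in the other 6, against 0.416 to 0.759 in Mst1Gal3. Its estimate of -5.24 ± 1.30 (adjusted p = 0.0016, edgeR) fell short of the threshold with limma-voom (-2.95, adjusted p = 0.107), and without Gal3Ko replicate 2 or 3 it was -4.47 or -4.54. The wt libraries held 154 to 213 CPM of Ogdhl and MstTg 7.499 to 14.98.

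In mean CPM the 8 largest gains were mostly of sarcomere and cytoskeleton genes. Xirp2 went from 1576 ± 190.0 to 18911 ± 2232 CPM, the largest gain of mean CPM outside the mitochondrial genome. The giant sarcomere spring titin (Ttn) came next on a high base, from 71670.3 ± 4416 to 83388 ± 6223, a small change whose groups overlapped (0.22 ± 0.09, adjusted p = 0.0335). That call was lost without any one of Mst1Gal3 replicates 1, 2 and 3 or Gal3Ko replicates 3 and 6 (edgeR adjusted p = 0.0571 to 0.0882). Cardiac actin Actc1 (0.61), filamin C (Flnc, 2.38), desmin (Des, 1.54), the myofibril assembly gene Nrap (1.78) and the nuclear RNA Malat1 (0.34) made up the rest with Acta1. The largest losses were of the calcium pump gene Atp2a2 (14045 to 8702 CPM), lipoprotein lipase Lpl, phospholamban Pln, ventricular light chain Myl2, the ATP synthase subunits Atp5b and Atp5a1, the ryanodine receptor Ryr2 and myoglobin Mb. Their log2 fold changes lay between -1.07 for Lpl and -0.39 for Mb. Without TMM factors the change of Mb missed the threshold (-0.15, adjusted p = 0.0694, edgeR).

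Sarcomere genes moved in both directions. Of the 22 measured, 7 rose and 10 fell, a balance that turned to 11 and 4 without TMM factors. The median was -0.08 and became 0.15 without TMM factors. The thin-filament inhibitor Tnni3 fell from 2203 ± 126 to 1100.4 ± 190.4 CPM (-1.001 ± 0.09), as did the light chains Myl2 (-0.71) and Myl3 (-0.72). Synpo2l, an actin-bundling protein of the Z-disc, rose by 2.27 ± 0.09 and Pdlim5 by 0.55. Microtubule and intermediate filament genes moved mostly one way: 18 of 21 rose and 1 fell, with a median of 1.14. Map1a, a microtubule-associated protein of neurons, was at 443, 506, 469, 458 and 399 CPM in Mst1Gal3 and from 12.3 to 17.4 CPM with a median of 14.4 in Gal3Ko, a 31.1-fold rise (adjusted p = 4.26e-30). Nestin (Nes), Map1b and synemin (Synm) rose by 3.29, 1.94 and 1.76. Tuba4a was the member that fell (-0.71 ± 0.12). Tubulin genes share long stretches of sequence, and how reads that map to several genes were counted is not given here, so single tubulins are less certain than the others.

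Calcium handling in heart muscle runs from the membrane calcium channel through release by Ryr2 to reuptake by the pump that Atp2a2 encodes. Of 18 measured genes of this cycle, 11 fell and 2 rose (median -0.20). Without TMM factors these counts were 6 and 5 and the median was 0.03. Atp2a2 was at 8920, 9621, 8168, 9042 and 7757 CPM in Mst1Gal3 and from 12217 to 16036 CPM with a median of 13871 in Gal3Ko. The groups were apart, and the fall was 1.61-fold (-0.69 ± 0.07, adjusted p = 4.88e-10). The pump inhibitor Pln (-0.77 ± 0.08), Ryr2 (-0.55 ± 0.06) and Hrc, a calcium-binding protein inside the reticulum (-1.23 ± 0.06), fell too. The calcium-responsive kinase Camk2d (0.43 ± 0.05) and Asph (0.21 ± 0.05) rose.

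Most ion channel genes fell. Of 25 sodium and potassium channel and connexin genes, 19 fell, 1 rose and 5 were not called (median -0.74, and -0.50 with 16 lower without TMM factors). Kcnj3, an inward rectifier subunit, fell from 86.0 ± 5.11 to 16.5 ± 2.77 CPM (-2.38 ± 0.10). Kcnip2, the partner of the channels that carry the early repolarising current (-1.85), the modifier Kcnv2 (-2.50), the muscle sodium channel Scn4a (-2.74) and Abcc9, the sulphonylurea receptor of the ATP-sensitive channel (-1.08), fell as well.

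In the adrenergic and angiotensin list 10 of 20 genes fell and 6 rose. Without TMM factors the balance turned, with 5 lower and 8 higher. Its median was -0.19, and 0.04 without TMM factors. The alpha-adrenergic receptor Adra1a fell from 35.2 ± 6.98 to 4.85 ± 2.54 CPM (-2.85 ± 0.22), and the cAMP phosphodiesterase Pde4d fell by 1.12. The cGMP phosphodiesterase Pde5a rose from 8.38 to 34.9 CPM (2.06 ± 0.08), the receptor kinase Grk5 by 1.36 and the angiotensin-converting enzyme Ace by 1.42.

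**Figure D2:**
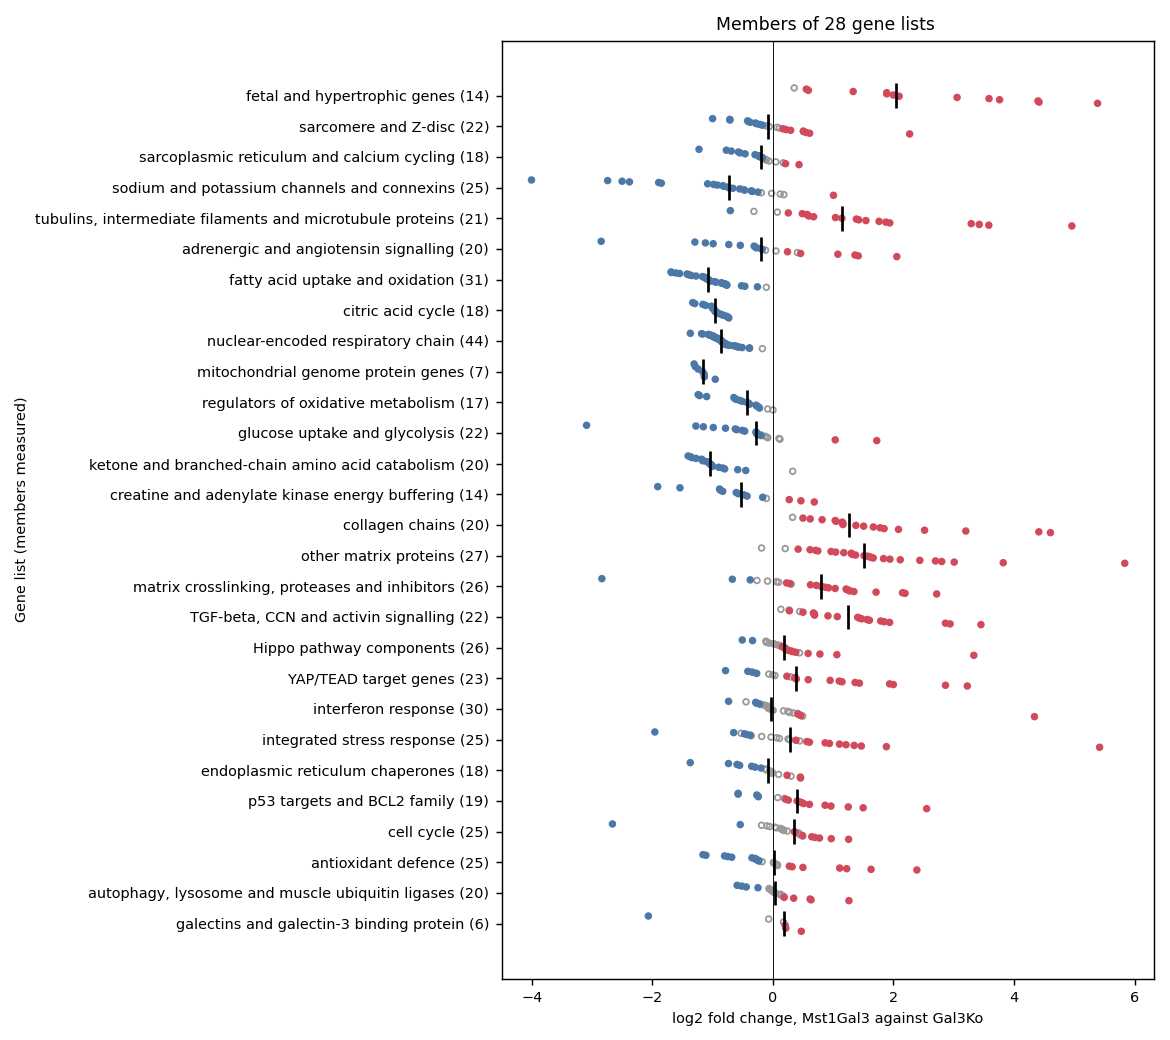
Log2 fold change of Mst1Gal3 against Gal3Ko (x axis) for each measured member of 28 gene lists (rows), with the list median as a black line; red points were called higher, blue points lower and open points were not called. All 18 citric acid cycle genes lie left of 0, and 19 of 20 collagen genes were called to its right.

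Genes of energy metabolism fell together. The heart burns fatty acids in its mitochondria, where beta-oxidation feeds the citric acid cycle and the respiratory chain. Of 31 fatty acid genes 30 fell and none rose (median -1.07). All 18 citric acid cycle genes fell (median -0.97), as did 43 of 44 respiratory chain genes of the nucleus (median -0.85). Without TMM factors, 28, 18 and 41 of these fell. Acaa2, the thiolase that ends each round of beta-oxidation, was at 203, 190.2, 169, 183 and 206 CPM in Mst1Gal3 and from 579.5 to 659 CPM with a median of 606 in Gal3Ko, a 3.21-fold fall with a wide gap between the groups (adjusted p = 6.12e-19). The dehydrogenase Hadh (-1.69 ± 0.06), the isomerase Eci1 (-1.61 ± 0.07), Decr1 (-1.38 ± 0.06) and the electron carrier oxidoreductase Etfdh (-1.42 ± 0.07) fell by similar amounts. Cpt1b, the muscle form of the enzyme that admits fatty acids to mitochondria, fell from 7.22 ± 1.71 to 3.71 ± 0.442 CPM (-0.97 ± 0.17). Cpt1a, the liver form, was the list member not called (-0.11 ± 0.11, adjusted p = 0.442).

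In the citric acid cycle the falls were alike in size, with the largest, -1.33, for Suclg2. Succinate dehydrogenase subunit Sdha, shared with the respiratory chain, went from 971 ± 57.1 to 448 ± 19.96 CPM. Complex I subunits Ndufa9 (-1.17 ± 0.05), Ndufa10 (-0.98 ± 0.06), Ndufs1 (-0.95 ± 0.06) and Ndufa3 (-1.06 ± 0.06) and the ATP synthase stalk subunit Atp5o (-0.998 ± 0.06) had the smallest p-values of the respiratory list. Transcripts of the mitochondrial genome itself fell in all 7 of the 13 protein genes that the table holds (median -1.17). mt-Co1, a subunit of cytochrome oxidase, was at 15447, 17476, 15682, 10352 and 18820 CPM in Mst1Gal3 and from 31072 to 50625 CPM with a median of 36718 in Gal3Ko (-1.29 ± 0.12). The other measured members, among them mt-Cytb (-1.14), mt-Nd5 (-1.17), mt-Nd1 (-1.24) and mt-Nd4 (-1.14), had falls of much the same size.

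Regulators of these genes fell by less. Of 17, 15 fell and none rose (median -0.43), and without TMM factors 8 fell and 1 rose. The coactivator gene Ppargc1a went from 152 ± 17.1 to 70.8 ± 6.05 CPM (-1.099 ± 0.08, adjusted p = 7.08e-13). The fatty acid receptor Ppara (-1.22) and the retinoid receptors Rxrg (-1.24) and Rxra (-0.51) fell. Ketone and branched-chain amino acid genes fell in 19 of 20 cases (median -1.05), with Aldh6a1 (-1.35 ± 0.07), Mccc2 (-1.28 ± 0.06) and the branched-chain dehydrogenase phosphatase Ppm1k (-1.41 ± 0.07) among them.

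Glucose use was mixed. Of 22 genes 14 fell and 2 rose (median -0.27), while without TMM factors 9 fell and 4 rose with a median of -0.04. The basal glucose transporter Slc2a1 rose from 11.4 ± 0.919 to 37.7 ± 2.03 CPM (1.72 ± 0.07) and the phosphofructokinase Pfkp by 1.03. The muscle enolase Eno3 (-1.28 ± 0.08), Ldhb, the lactate dehydrogenase subunit of oxidative tissue (-1.15 ± 0.07), and Pfkfb1 (-3.09 ± 0.23) fell. Among energy-buffering genes, 10 of 14 fell, including muscle creatine kinase Ckm (-1.54 ± 0.10), its mitochondrial form Ckmt2 (-0.87 ± 0.08) and the adenine nucleotide carrier Slc25a4 (-0.83 ± 0.08). The brain form Ckb (0.69 ± 0.12), the creatine transporter Slc6a8 (0.27 ± 0.07) and Gatm (0.46 ± 0.17) rose, the last not without Mst1Gal3 replicate 4 (0.29, adjusted p = 0.157, edgeR) or Gal3Ko replicate 6 (0.38, adjusted p = 0.0591).

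Extracellular matrix genes rose within the knockout. Of 20 collagen chains 19 rose and none fell (median 1.27), and of 27 other matrix proteins 25 rose and none fell (median 1.51), against 26.9% of all genes. Col1a1, the main chain of scar collagen, was at 426, 484, 494, 737 and 456 CPM in Mst1Gal3 and from 84.7 to 152 CPM with a median of 123 in Gal3Ko. No library of the 2 groups overlapped, and the rise was 4.24-fold (2.08 ± 0.17, adjusted p = 9.96e-11). Its partner Col1a2 rose by 1.84, the fibril-associated Col12a1 by 4.41 from 3.95 to 84.8 CPM, and the vessel and basement membrane chains Col8a1 and Col15a1 by 2.52 and 1.38. Col5a3 was not called (0.33 ± 0.20, adjusted p = 0.174) but was without TMM factors (0.55, adjusted p = 0.0273, edgeR).

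Periostin (Postn), a protein that activated fibroblasts lay down, was at 154, 265, 264, 318 and 256 CPM in Mst1Gal3 and from 32.3 to 47.2 CPM with a median of 37.9 in Gal3Ko, a 6.49-fold rise (adjusted p = 1.42e-13). Thrombospondin 4 (Thbs4), made by stressed muscle cells and fibroblasts, had the largest change of the matrix lists, from 4.67 ± 1.45 to 268 ± 47.8 CPM (5.84 ± 0.19). The proteoglycans biglycan (Bgn), decorin (Dcn) and lumican (Lum) rose by 1.94, 1.18 and 1.57 and the microfibril protein Mfap5 by 2.11. Enzymes that process or break down matrix rose in 17 of 26 cases and fell in 3. The gelatinase Mmp2 (1.71 ± 0.08), the crosslinking enzymes Loxl3 (2.15 ± 0.14) and Loxl1 (1.27 ± 0.10), and Adamts2, which trims procollagen (1.23 ± 0.09), rose. Among the inhibitors, Timp1 went from 0.724 ± 0.240 to 4.71 ± 0.514 CPM (2.72 ± 0.17), while Timp4 fell from 35.6 ± 21.7 to 4.97 ± 1.71 (-2.84 ± 0.46). Timp3 fell by little (-0.38 ± 0.14), and not without Mst1Gal3 replicate 1 or 4 or Gal3Ko replicate 8 (edgeR adjusted p = 0.0658, 0.0731 and 0.0512) nor without TMM factors.

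Growth factors known to drive matrix production rose as well. In the TGF-beta, CCN and activin list 19 of 22 genes rose and none fell (median 1.24). The ligands Tgfb2 and Tgfb3 rose by 1.94 ± 0.07 and 1.60 ± 0.08, and Ltbp3, which tethers latent TGF-beta to the matrix, by 1.47 ± 0.08. Inhba, the activin A subunit, rose from 1.08 ± 0.319 to 11.9 ± 1.41 CPM (3.45 ± 0.13), and the activin-binding inhibitor Fstl3 from 2.45 to 18.8 (2.94 ± 0.12). Ctgf, the connective tissue growth factor and a target of both TGF-beta and YAP, was at 289, 327, 283, 395 and 268 CPM in Mst1Gal3 and from 27.7 to 53.8 CPM with a median of 41.5 in Gal3Ko (2.86 ± 0.16, adjusted p = 9.58e-14).

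**Figure D3:**
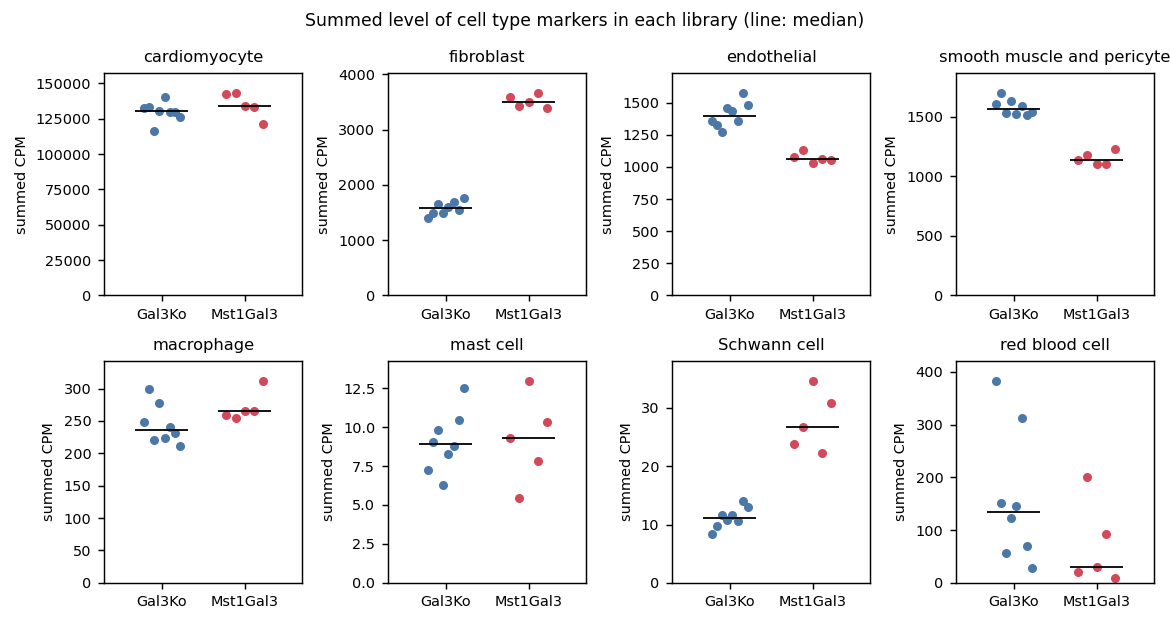
Summed CPM (linear axes from 0) of the measured markers of 8 cell types in each Gal3Ko (blue) and Mst1Gal3 (red) library, with the median as a line. Fibroblast and Schwann cell sums were higher in every Mst1Gal3 library than in every Gal3Ko library, and endothelial and smooth muscle sums were lower. Much of the Schwann cell rise is Cdh19 alone, and much of the smooth muscle fall is Abcc9 alone.

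Markers of cell types moved alongside these genes, and their part in the results was not tested. All 12 fibroblast markers were called, 11 higher and 1 lower, and their summed level was 3387 to 3654 CPM in Mst1Gal3 against 1403 to 1757 in Gal3Ko. Pdgfra, a surface receptor that defines resident fibroblasts, rose by 1.15 ± 0.07, the transcription factor Meox1 by 2.48 ± 0.13 and the procollagen enhancer Pcolce by 1.49 ± 0.09, while the ferritin receptor Scara5 fell by 0.94 ± 0.12. The list includes Col1a1, Dcn and Lum, which the matrix lists also hold. Of 10 cardiomyocyte markers 6 fell and 2 rose, and their summed level, which titin dominates, was 121020 to 142882 CPM against 116240 to 140671, so heart muscle transcripts were abundant in every library.

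Vessel markers were lower. Of 13 endothelial markers 9 fell and none rose (median -0.41), with Cdh5 (-0.63 ± 0.07), Tek (-0.52 ± 0.06) and Flt1 (-0.51 ± 0.07) among them. Without TMM factors 7 fell and 2 rose. Their sum was 1029 to 1131 CPM in Mst1Gal3 and 1267 to 1571 in Gal3Ko. Of 12 mural cell markers 4 rose and 5 fell (median -0.05), and without TMM factors 5 rose and 4 fell (median 0.18). Their sum was 1103 to 1230 CPM in Mst1Gal3 and 1513 to 1698 in Gal3Ko. Abcc9, also in the channel list, alone ran from 244 to 276 CPM in Mst1Gal3 and 492 to 645 in Gal3Ko. The pericyte genes Rgs5 (-0.94 ± 0.10), Kcnj8 (-0.81 ± 0.08) and Vtn (-1.11 ± 0.11) fell, and the contractile genes Acta2 (0.97 ± 0.25) and Cnn1 (1.79 ± 0.29) and the proteoglycan Cspg4 (2.11 ± 0.11) rose.

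Of 19 macrophage markers 5 rose, 2 fell and 12 were not called (15 rose and none fell without TMM factors), and the summed level was 255 to 312 CPM against 212 to 299. Those that rose included Gpnmb (2.35 ± 0.18) and Cd68 (1.47 ± 0.14), lysosomal proteins of active macrophages, and Trem2 (0.93 ± 0.20). The resident marker Cd163 (-0.54 ± 0.15) and the monocyte receptor Ccr2 (-0.68 ± 0.20) fell, though not past the threshold without TMM factors (edgeR adjusted p = 0.0977 and 0.0573). The Schwann cell cadherin Cdh19 rose from 5.55 to 20.1 CPM (1.86 ± 0.13). It made up most of the rise of the Schwann cell sum (median 11.1 CPM in Gal3Ko and 26.7 in Mst1Gal3). Mast cell protease genes were scarce and rose within overlapping ranges, as with Cma1 (0.440 to 1.17 CPM, 1.46 ± 0.35), while the receptor Kit fell (-0.68 ± 0.17). None of 5 red blood cell genes was called by edgeR (adjusted p = 0.149 to 0.242), although limma-voom with quality weights called all 5 lower (median -2.10), with sums from 9.06 to 199.8 CPM in Mst1Gal3 and 27.5 to 383 in Gal3Ko. No mesothelial marker of the 4 measured was called, the table held 1 lymphocyte and 1 neutrophil marker (Cd4 and Csf3r), neither called, and no adipocyte marker. Of the 6 atrial genes Pam (1.51 ± 0.06) and Dkk3 (1.44 ± 0.39) rose and Myl4, Myl7, Sln and Nr2f2 were not called. The estimates of Myl4, Myl7 and Sln (0.23, -0.11 and -0.72) depended on single libraries of either group. Without Mst1Gal3 replicate 3 they were -1.42, -2.59 and -2.73. Without Gal3Ko replicate 8 they were 0.9999, 0.75 and 0.34, and none of the 3 genes was called either way.

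Components of the Hippo pathway other than Stk4 were called about as often as all genes. Of 26, 13 rose and 2 fell (18 and 0 without TMM factors) with a median of 0.19, and 5 had groups that did not overlap. The angiomotin gene Amot, whose protein binds YAP, rose by 1.06 ± 0.10, Frmd6 by 0.58 ± 0.06 and the protocadherin Dchs1 by 0.78 ± 0.09. Yap1 was slightly higher (0.26 ± 0.06, adjusted p = 0.000391) and its partners Tead1 (-0.34 ± 0.09) and Tead4 (-0.51 ± 0.12) slightly lower, the latter pair not past the threshold without TMM factors (adjusted p = 0.284 and 0.068, edgeR). The kinases Lats1 (0.07 ± 0.06) and Lats2 (0.03 ± 0.06) were not called, but both were higher without TMM factors (0.30 and 0.27, adjusted p = 0.00047 and 0.000721, edgeR). Vgll2, a TEAD cofactor of skeletal muscle, rose from 0.157 ± 0.181 to 1.63 ± 0.345 CPM (3.33 ± 0.38), with an estimate of 3.93 without Gal3Ko replicate 3 and of 2.71 without the libraries of high atrial genes.

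Known targets of YAP and TEAD rose more often than they fell: 14 of 23 were higher and 4 lower, with a median of 0.38. Ctgf, Ankrd1, Tgfb2 (given above), Fjx1 (3.23 ± 0.21) and the receptor kinase Axl (1.15 ± 0.08) had the smallest p-values. Gadd45a (-0.79 ± 0.14), Dock5 (-0.42 ± 0.08) and Crim1 (-0.27 ± 0.06) fell, Crim1 not past the threshold without TMM factors (edgeR adjusted p = 0.678). The letters GGAATG, which TEAD proteins recognise, occurred on either strand of the 250 bases before the start in 6 of the 15 target genes with an entry in the RefSeq promoter table, and in 13% of 10500 measured genes with an entry. The promoters of Ankrd1 (GRCm38.p6, chr19:36119845-36120094, minus strand) and Axl (chr7:25788734-25788983, minus strand) are printed 5′ to 3′ as RefSeq gives them, because they are the called targets with the smallest p that hold the letters, which stand in capitals in either orientation.
Ankrd1: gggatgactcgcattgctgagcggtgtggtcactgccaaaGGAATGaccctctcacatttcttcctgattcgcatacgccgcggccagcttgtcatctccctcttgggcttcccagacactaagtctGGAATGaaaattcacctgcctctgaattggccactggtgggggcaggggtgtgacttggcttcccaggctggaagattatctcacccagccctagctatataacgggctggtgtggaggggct
Axl: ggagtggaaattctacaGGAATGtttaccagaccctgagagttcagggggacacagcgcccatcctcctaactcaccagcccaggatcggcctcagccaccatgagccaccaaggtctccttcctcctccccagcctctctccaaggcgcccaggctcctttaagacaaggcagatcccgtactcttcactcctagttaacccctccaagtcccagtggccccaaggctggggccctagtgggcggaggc
A match of these letters is a description of the sequence and not a binding site.

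Stress programmes were mixed. In the integrated stress response, through which amino acid shortage or mitochondrial faults raise ATF4 and its targets, 11 of 25 genes rose and 5 fell (median 0.28). Atf3, a transcription factor of acute stress, was at 259.5, 426, 221, 238 and 217 CPM in Mst1Gal3 and from 2.68 to 11.3 CPM with a median of 6.31 in Gal3Ko, a 42.8-fold rise with Mst1Gal3 replicate 2 highest (adjusted p = 1.72e-13). Nupr1 (1.88 ± 0.13), the serine synthesis enzyme Psat1 (1.47 ± 0.14) and the amino acid transporter Slc7a5 (1.35 ± 0.13) rose, while Aldh1l2, a folate enzyme of mitochondria, fell from 13.3 ± 2.02 to 3.40 ± 0.515 CPM (-1.96 ± 0.11). Gdf15, a secreted product of this response, was not called (0.44 ± 0.26, adjusted p = 0.154) but was called without TMM factors (0.67, adjusted p = 0.0239, edgeR). The CARE letters TGATGNAA, recognised by ATF4 with its partners, were in the promoter window of 5 of 21 members and of 2.38% of measured genes. Atf3 (GRCm38.p6, chr1:191183334-191183583, minus strand) and Nupr1 (chr7:126625471-126625720, minus strand) are shown, with the letters in capitals. Both matches begin at the same distance from the start.
Atf3: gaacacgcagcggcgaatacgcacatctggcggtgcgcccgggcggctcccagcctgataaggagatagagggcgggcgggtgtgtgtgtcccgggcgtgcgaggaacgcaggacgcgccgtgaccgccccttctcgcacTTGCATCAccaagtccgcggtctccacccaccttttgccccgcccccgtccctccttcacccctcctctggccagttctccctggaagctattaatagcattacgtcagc
Nupr1: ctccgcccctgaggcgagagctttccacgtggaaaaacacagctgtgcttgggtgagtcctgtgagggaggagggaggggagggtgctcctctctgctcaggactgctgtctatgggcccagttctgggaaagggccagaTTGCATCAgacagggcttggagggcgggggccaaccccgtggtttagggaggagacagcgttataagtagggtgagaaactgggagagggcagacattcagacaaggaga
Of 18 chaperones of the endoplasmic reticulum 7 fell and 3 rose. Without TMM factors 4 fell and 8 rose, and their median of -0.09 became 0.15. Hspa5, the chief chaperone there, fell from 453 ± 57.0 to 272 ± 48.6 CPM (-0.74 ± 0.10) and so did Herpud1, a degradation factor (-1.37 ± 0.11).

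Among p53 targets and BCL2 family genes 12 of 19 rose and 4 fell (median 0.40). Phlda3, an inhibitor of AKT, rose from 4.99 ± 0.945 to 29.3 ± 5.98 CPM (2.55 ± 0.13), the survival gene Bcl2 by 1.497 ± 0.09 and the death receptor Eda2r by 1.2499 ± 0.13, while Ccng1 (-0.58 ± 0.10) and Fas (-0.58 ± 0.11) fell. In the cell cycle list 8 of 25 rose, 2 fell and 15 were not called, and without TMM factors 18 rose and 1 fell. The replication helicase subunit Mcm6 (1.26 ± 0.09) and cyclin Ccnd2 (0.64 ± 0.07) rose, the proliferation marker Mki67 was not called (0.45 ± 0.23, adjusted p = 0.104, but 0.0267 without Mst1Gal3 replicate 1 and 0.0154 without TMM factors), and Cenpf, a kinetochore protein that heart muscle also makes, fell from 36.6 to 5.77 CPM (-2.66 ± 0.23). Of 25 genes of antioxidant defence and oxidant production 7 rose and 11 fell, and 11 and 5 without TMM factors. The mitochondrial enzymes Sod2 (-1.16 ± 0.06) and Prdx3 (-0.75 ± 0.06) fell, and the peroxidases Gpx1 (1.22 ± 0.11) and the secreted Gpx3 (1.63 ± 0.09) rose. Nox4, an oxidase that makes hydrogen peroxide, rose from 2.39 ± 0.731 to 12.6 ± 1.498 CPM (2.39 ± 0.17). In the list of autophagy, lysosome and muscle ubiquitin ligase genes 5 of 20 rose and 4 fell, and 16 and 3 without TMM factors. Cathepsin K (Ctsk, 1.26 ± 0.12) and the autophagy receptor Sqstm1 (0.63 ± 0.07) rose, and Foxo3 (-0.59 ± 0.07) and Ulk1 (-0.52 ± 0.07) fell.

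Few interferon response genes changed within the knockout. They are induced when interferon receptors activate STAT2 and IRF9, which bind the interferon-stimulated response element. Of 30, 3 rose and 4 fell in Mst1Gal3 against Gal3Ko, 23 were not called, and the median was -0.04 (0.19 without TMM factors, with 10 higher and 1 lower). With limma-voom quality weights, and likewise without the libraries of high atrial genes, 3 rose and 1 fell. The 7 called by edgeR over all libraries are 23.3% of the list, against 52.5% of all genes. In MstTg against wt the same genes had a median of 0.94. Irf7, the regulator that amplifies the response, was at 6.10, 6.26, 4.62, 5.73 and 5.11 CPM in Mst1Gal3 and from 4.35 to 8.31 CPM with a median of 5.39 in Gal3Ko. These ranges overlapped (-0.05 ± 0.21, adjusted p = 0.859), whereas Irf7 ran from 12.8 to 35.3 CPM in MstTg and 5.30 to 9.39 in wt. Its response in the knockout was lower than that outside it (log2 difference -1.87 ± 0.29, adjusted p = 0.00224, edgeR, contrast of the 2 responses).

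Cxcl10, a chemokine, had the largest change of the list, rising from 1 to 6 counts per library to 58 to 130 counts (4.34 ± 0.32, adjusted p = 5.38e-13), with Mst1Gal3 replicate 2 highest at 5.35 CPM. Ifit2 (0.46 ± 0.14) and Oasl2 (0.42 ± 0.15) rose slightly, the latter not without Mst1Gal3 replicate 1 (adjusted p = 0.0551, edgeR). Rsad2, the antiviral protein viperin, fell from 14.2 ± 1.85 to 8.54 ± 1.86 CPM (-0.74 ± 0.17).

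The difference between the 2 responses was called for 16 of the 30 genes, each with a lower response in the knockout, against 0.656% of all genes. The count was 8 to 10 without any one of wt replicates 1 and 2, Gal3Ko replicates 7 and 8 or Mst1Gal3 replicates 4 and 5, and 9 without the 6 libraries of high atrial genes. Ifit1, an antiviral RNA-binding protein named here for its promoter, was at 3.69, 4.20, 3.52, 3.58 and 4.46 CPM in Mst1Gal3 and from 3.21 to 5.06 CPM with a median of 3.93 in Gal3Ko, with 7.69 to 24.8 CPM in MstTg and 3.29 to 5.66 in wt. It was not called within the knockout (-0.02 ± 0.22, adjusted p = 0.939), and its difference was -1.67 ± 0.30 (adjusted p = 0.00844, edgeR, but 0.0691 with limma-voom quality weights). The RNA sensors Ifih1 (-0.64 ± 0.13) and Ddx58 (-0.68 ± 0.13), the factors Irf9 (-0.78 ± 0.14) and Stat2 (-0.67 ± 0.15), and Usp18, which damps the receptor (-1.27 ± 0.25), differed in the same direction. The call of Stat2 was lost without any 1 of wt replicates 1, 2 or 6, MstTg replicate 6, Gal3Ko replicates 1, 7 or 8 and Mst1Gal3 replicates 2, 4 or 5 (adjusted p up to 0.0751, edgeR). Ddx58, Irf9, Stat2 and Usp18 were chosen after their values were seen. Oasl1, which restrains Irf7 production, differed by -1.71 ± 0.37, a call lost without Mst1Gal3 replicate 1 or 5 (adjusted p = 0.0519 and 0.0512, edgeR). The members and this pattern were selected with earlier results of these data known.

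The letters GAAANNGAA, the core of the interferon-stimulated response element, were found in the promoter window of 13 of 20 members with an entry (65.0%) and of 7.53% of measured genes. Of the 11 members with an entry whose responses differed, 5 hold them. Ifit1 (GRCm38.p6, chr19:34640639-34640888, plus strand) holds 3 overlapping or close matches, and Ifih1 (chr2:62646256-62646505, minus strand) holds 1. They are the holders of the letters with the smallest p for the difference, with the matches in capitals.
Ifit1: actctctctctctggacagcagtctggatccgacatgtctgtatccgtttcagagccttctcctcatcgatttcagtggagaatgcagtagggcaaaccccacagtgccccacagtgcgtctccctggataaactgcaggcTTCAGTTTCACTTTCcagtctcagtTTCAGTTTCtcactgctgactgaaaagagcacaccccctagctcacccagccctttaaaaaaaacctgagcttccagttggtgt
Ifih1: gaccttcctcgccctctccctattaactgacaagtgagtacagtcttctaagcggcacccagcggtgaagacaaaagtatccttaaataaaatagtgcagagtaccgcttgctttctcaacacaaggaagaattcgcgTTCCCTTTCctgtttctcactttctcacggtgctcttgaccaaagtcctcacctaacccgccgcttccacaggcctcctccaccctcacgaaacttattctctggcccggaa

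**Figure D4:**
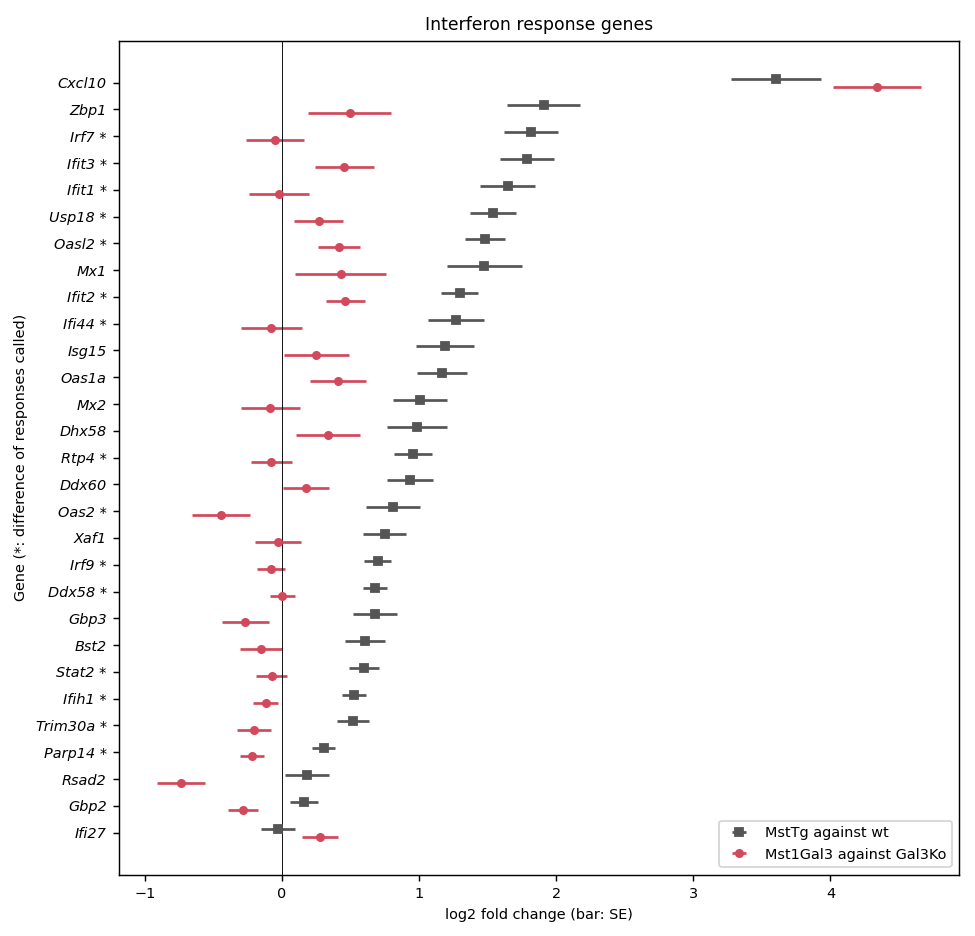
Log2 fold change ± SE of interferon response genes (rows) in Mst1Gal3 against Gal3Ko (red circles) and MstTg against wt (grey squares), with an asterisk where the difference of the responses was called. Red circles lie near 0 for most genes (median -0.04 over the list of 30) and grey squares to the right (median 0.94 over that list), apart from Cxcl10.

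Over all genes the responses to Mst-1 with and without galectin-3 had mostly the same direction. MstTg against wt compares no library of the knockout groups, but all 26 libraries share the estimate of the spread, so the calls are not independent. That contrast called 8385 genes (55%). 6647 genes were called in both, which is 83.0% of the genes called here and 79.3% of those called there. They had the same direction in 6634 cases and opposite directions in 13. Across genes, which are not independent replicates, the 2 sets of log2 fold changes had a Pearson r of 0.936. The difference of the responses was called for 100 genes (0.656%), 44 with a higher and 56 with a lower response in the knockout, and an unadjusted p under 0.05 was found for 1857. Of the 54 that were called in the same direction in both contrasts, 47 had the smaller change in the knockout. Those genes were selected for the difference. Among all 1675 genes called here with at least a 2-fold change, which were selected on the knockout contrast, the log2 fold change in the knockout divided by that outside it had a median of 1.01, and 810 had the larger change outside. Without the 6 libraries of high atrial genes the difference was called for 106 genes, 68 with a higher and 38 with a lower response in the knockout, so the balance turned round. The count of 100 depended on single libraries: it was 63 without MstTg replicate 1, 189 without MstTg replicate 5, 58 and 65 without Gal3Ko replicates 7 and 8, and 59, 52 and 52 without Mst1Gal3 replicates 1, 4 and 5. A gene not called for the difference is not thereby shown to respond equally, because modest differences could be missed.

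**Figure D5:**
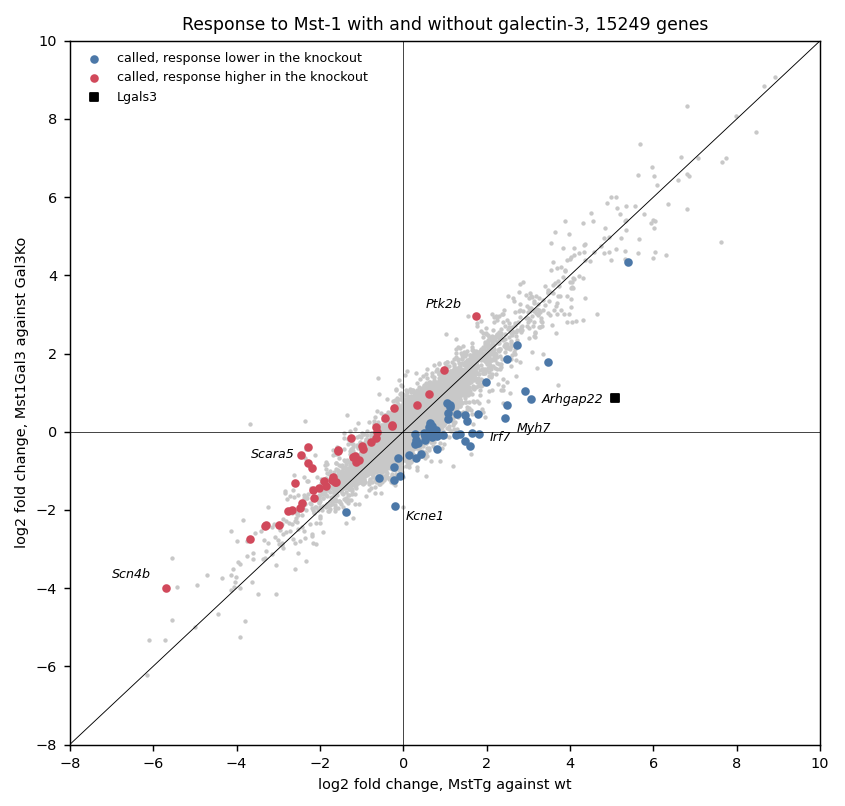
Log2 fold change of 15249 genes (grey points) in Mst1Gal3 against Gal3Ko (y axis) and in MstTg against wt (x axis), with the diagonal of equal response. Red points were called as higher and blue points as lower in the knockout (Lgals3, the knocked-out gene, is the black square); most genes lie along the diagonal.

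The lists of muscle, metabolic and matrix genes had close medians in the 2 contrasts. Fatty acid genes had -1.07 here and -1.28 in MstTg against wt, citric acid cycle genes -0.97 and -1.15, and nuclear respiratory chain genes -0.85 and -1.05. Collagens had 1.27 and 1.31 and other matrix proteins 1.51 and 1.62, and edgeR called no member of either list for the difference. In simulated data the test of the difference recovered 56% of genes changed by 1.5-fold and 100% of those changed by 2-fold. The lack of calls therefore does not show equal responses of these lists, since modest differences could be missed. DESeq2 called 1 collagen, limma-voom 1, and limma-voom with quality weights 2 collagens and 1 other matrix protein. Outside the lists edgeR called the matrix genes Mgp (-0.51 ± 0.12, adjusted p = 0.0457) and Frem1 (-1.06 ± 0.24, adjusted p = 0.0286). Both rose less in the knockout. Among the metabolic members the difference was called for Acaa2 (0.46 ± 0.09, adjusted p = 0.0159), Rxrg (0.48 ± 0.11) and Mccc2 (0.35 ± 0.08), each with a smaller fall in the knockout. The call of Mccc2 was lost in most of its alternatives, and that of Rxrg without wt replicate 2, Gal3Ko replicate 7 or Mst1Gal3 replicate 1, 2, 4 or 5 (edgeR adjusted p = 0.0508 to 0.0769). In the matrix enzyme and growth factor lists, Loxl2, a crosslinking enzyme, rose by 1.26 here and 1.99 outside the knockout (difference -0.73 ± 0.18, adjusted p = 0.0457), and the CCN gene Wisp1 rose by 1.79 and 3.48 (difference -1.69 ± 0.24, adjusted p = 0.000261). The call of Loxl2 was lost without any 1 of wt replicates 1, 2, 3, 5 or 6, MstTg replicates 1, 2, 3 or 4, Gal3Ko replicates 1, 5, 6, 7 or 8 and Mst1Gal3 replicates 1, 4 or 5 (adjusted p up to 0.103, edgeR). In the same lists as Loxl2 and Wisp1, Plod2 (-0.41 ± 0.09, adjusted p = 0.0319, edgeR) and Tgfbr1 (-0.44 ± 0.09, adjusted p = 0.0191) were also called. Their rises were smaller in the knockout. Loxl2, Wisp1, Plod2, Tgfbr1, Mgp and Frem1 were chosen after their values were seen.

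Genes with the largest differences included channels and signalling proteins. Arhgap22, a regulator of Rac, was at 2.97, 2.80, 2.88, 3.33 and 3.85 CPM in Mst1Gal3, 1.28 to 2.15 CPM in Gal3Ko, 15.5 to 22.3 in MstTg and 1.85 to 3.10 in wt. Its rise was 0.83 in the knockout and 3.07 outside it (difference -2.24 ± 0.19, adjusted p = 2.69e-09). Kcne1, the accessory subunit of the slow repolarising channel, fell in the knockout (-1.90 ± 0.23) with -0.20 outside it (difference -1.69 ± 0.31, adjusted p = 0.00844). Angptl7, a secreted angiopoietin-like protein, rose by 1.05 against 2.92, a difference not called with limma-voom quality weights (adjusted p = 0.0926). Ptk2b, a calcium-regulated tyrosine kinase, rose more in the knockout, by 2.97 against 1.75 (difference 1.22 ± 0.23, adjusted p = 0.0104). The sodium channel subunits Scn4b (-4.01 against -5.68) and Scn4a (-2.74 against -3.68), the potassium channel Kcnj3 (-2.38 against -2.98), the fibroblast gene Scara5 (-0.94 against -2.192), the chemokine Cxcl14 (-1.31 against -2.59) and the opioid precursor Penk (-0.81 against -2.30) fell less. Bmper, a BMP-binding protein, had -0.15 in the knockout, where it was not called, and -1.26 outside it. The call of Scn4b was lost without MstTg replicate 1 or 6 or Mst1Gal3 replicate 4 or 5 and with limma-voom (adjusted p = 0.0565, 0.0515, 0.0624, 0.0624 and 0.136), that of Kcnj3 without Mst1Gal3 replicate 5 (adjusted p = 0.0512), and that of Penk in most of its alternatives.

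The levels of Myh7 did not overlap between the galectin-3 genotypes without Mst-1 overexpression, a contrast whose test is not reported here. It ran from 85.1 to 609.7 CPM in wt, 657 to 944 in Gal3Ko, 994 to 2866 in MstTg and 812 to 1214 in Mst1Gal3. The log2 fold change was 2.45 outside the knockout and 0.35 within it (difference -2.10 ± 0.42, adjusted p = 0.0193). With replicate number as a block the call of Myh7 was lost (adjusted p = 0.0785, edgeR). So were those of Ptk2b (0.0792), Scn4a (0.0680) and Acaa2 (0.0578), among 13 of the 30 differences described. Myh7 lies on chromosome 14 (54970684 to 54994626), as do Lgals3, Arhgap22 (33214026 to 33369934), Irf9 (55603571 to 55610030), Scara5 (65666403 to 65764826), Ptk2b (66153257 to 66281052) and Loxl2 (69609068 to 69695834). That chromosome held 13 of the 100 genes called for the difference, Lgals3 itself among them. They were 2.69% of its 484 tested genes, against 0.656% of all genes. Only the mitochondrial genome had a higher share (2 of 16 genes, 12.5%). Whether sequence linked to the targeted Lgals3 locus has a part in the differences on chromosome 14 was not tested. Ogdhl, whose levels were given above, is at 32322019 to 32348151 on the same chromosome.

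Other galectins moved in both directions. Of 6 genes measured, 3 rose and 1 fell (median 0.19). Lgals1, the most abundant of them, went from 64.7 ± 7.60 to 89.7 ± 12.5 CPM (0.47 ± 0.08), Lgalsl rose by 0.21 ± 0.06 and Lgals8 by 0.20 ± 0.06, all within overlapping ranges. Lgals4, best known from the gut, fell from 44.5 ± 12.7 to 10.6 ± 2.62 CPM (-2.07 ± 0.22, adjusted p = 1.48e-08), with -2.14 outside the knockout. Lgals9, a partner of immune receptors, was not called here (-0.07 ± 0.09) and differed between the responses (-0.60 ± 0.13, adjusted p = 0.0202, but 0.0511 without Mst1Gal3 replicate 4; chosen after its values were seen). Lgals3bp, which binds galectin-3, was not called (0.18 ± 0.14, adjusted p = 0.29) but was without TMM factors (0.42, adjusted p = 0.00686, edgeR).

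Of 17 measured genes that the annotation classes as miRNA, 4 were higher and 1 lower (29.4% called, against 52.5% of all genes). The libraries were made from total RNA without a size selection for miRNAs being described, so these counts stand for precursors or host transcripts and not for the mature forms, and reads of overlapping genes cannot be told apart. Chosen after their values were seen, Mir23b, Mir27b and Mir24-1, which lie in 1 cluster on chromosome 13, rose together. Mir23b was at 1.59, 1.24, 1.29, 2.07 and 1.58 CPM in Mst1Gal3 and from 0.400 to 0.913 CPM with a median of 0.624 in Gal3Ko (1.24 ± 0.20, adjusted p = 3.67e-06), Mir27b changed by 1.20 ± 0.24 and Mir24-1 by 1.36 ± 0.22. Some mature forms of the cluster in the RefSeq table (GRCm38.p6) are printed 5′ to 3′ with the seed (bases 2 to 8) in capitals, and their seeds differ. The forms mmu-miR-27b-5p and mmu-miR-24-1-5p are left out, and mmu-miR-23b-3p has no entry in that table.
mmu-miR-27b-3p: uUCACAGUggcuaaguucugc
mmu-miR-24-3p: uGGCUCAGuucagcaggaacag
mmu-miR-23b-5p: gGGUUCCUggcaugcugauuu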

How the data were processed

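Whole-tissue RNA of 26 left ventricles was sequenced by the authors after rRNA depletion with a directional kit, per the labels' protocols. The authors deposited raw read counts per gene. STAR, featureCounts and bcl2fastq 2.19.1.403 are listed as tools and GRCm38 as build, per the submitters' processing notes. The annotation release, strand setting and handling of multi-mapping reads were not stated. No gene of the deposited count table averages under 10 counts.

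All 26 libraries were fitted together with edgeR 4.0.16 in R 4.3.3 (TMM factors, filterByExpr, robust quasi-likelihood, genotype group as the term, 22 residual degrees of freedom). The contrasts were Mst1Gal3 against Gal3Ko and its difference from MstTg against wt. All 15249 genes passed the filter. DESeq2 1.42.0, limma-voom (limma 3.58.1), plain library totals, other filters, a replicate block and left-out libraries were the alternatives. The code was tested on simulated data. No pair of libraries agreed within sampling noise (lowest chi-square per degree of freedom 8.52). A count of 3, the limit that a count of 0 allows, is 0.107 to 0.200 CPM in these 13 libraries and covers counting error only.

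Named genes were Stk4 and Lgals3, 16 readout genes, the 10 largest rises and falls of at least 1 CPM without overlap, the 8 largest gains and losses of CPM, up to 5 members of each list by p with up to 3 against its direction, and the 6 highest and lowest differences of response. Some genes that met these rules are not reported here. Other genes were chosen after their values were seen. The members, lists and motifs were chosen with earlier results of these data known. The ERR letters TNAAGGTCA were also searched in the promoter window of metabolic genes, and were not more frequent in most of these lists. Among members with an entry, 0 of 15 citric acid cycle and 0 of 26 fatty acid genes held them. In the nuclear respiratory chain list 1 of 33 did (Atp5g3), against 0.848% of measured genes. Promoters and miRNAs come from RefSeq tables (GRCm38.p6), which held 10500 of the measured genes.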

Additional observations from a re-analysis of the deposited data

Results flagged for a closer look

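In 35 groups of libraries, 7.51% of those tested, 1 library stood apart from the rest of its group by Dixon's criterion, where chance marks about 1 in 20. The values are the gap to the next library as a share of the group's range. Gal3Ko replicate 2 was apart for mt-Nd1 (highest, 0.536), mt-Nd4 (highest, 0.543), mt-Cytb (highest, 0.568) and the number of genes detected (lowest, 0.564). Gal3Ko replicate 4 was apart for Ckm (highest, 0.615), Slc25a4 (highest, 0.586), Gadd45a (highest, 0.538), Ifit2 (highest, 0.600) and Xirp1 (highest, 0.549). Gal3Ko replicate 5 was apart for Mir24-1 (highest, 0.611). Gal3Ko replicate 6 was apart for Acta2 (highest, 0.646) and Inhba (highest, 0.577). Gal3Ko replicate 7 was apart for Grin2a (lowest, 0.527). Gal3Ko replicate 8 was apart for Myl7 (highest, 0.546), Chodl (highest, 0.693), Angptl7 (highest, 0.533), Dkk3 (highest, 0.625), Loxl2 (highest, 0.647), Sln (highest, 0.658) and Myl4 (highest, 0.599). Mst1Gal3 replicate 2 was apart for Atf3 (highest, 0.798), Pdlim5 (highest, 0.793) and Cxcl10 (highest, 0.918). Mst1Gal3 replicate 3 was apart for Ndufa9 (lowest, 0.728), Scn4a (highest, 0.874), Myl7 (highest, 0.935), Dkk3 (highest, 0.831), Sln (highest, 0.914) and Myl4 (highest, 0.933). Mst1Gal3 replicate 4 was apart for Col1a1 (highest, 0.782), Col5a3 (highest, 0.744), Gatm (highest, 0.765), Tnni3 (highest, 0.866) and Phlda3 (highest, 0.814). Mst1Gal3 replicate 5 was apart for Synpo2l (lowest, 0.730).

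The response to Mst-1 differed with galectin-3 genotype, by edgeR's test of the difference itself, for 30 genes described besides Plod2, Tgfbr1, Mgp and Frem1. It was higher in the knockout on the log2 scale for Scn4a (0.94), Rxrg (0.48), Cxcl14 (1.28), Mccc2 (0.35), Scara5 (1.253), Kcnj3 (0.60), Bmper (1.11), Acaa2 (0.46), Penk (1.49), Scn4b (1.68) and Ptk2b (1.22), and lower for Ccnd2 (-0.47), Lgals9 (-0.60), Irf9 (-0.78), Wisp1 (-1.69), Irf7 (-1.87), Ifih1 (-0.64), Angptl7 (-1.87), Oasl2 (-1.06), Usp18 (-1.27), Loxl2 (-0.73), Ifit1 (-1.67), Kcne1 (-1.69), Stat2 (-0.67), Ddx58 (-0.68), Oasl1 (-1.71), Ifit2 (-0.83), Lgals3 (-4.22), Myh7 (-2.10) and Arhgap22 (-2.24).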

How the results depend on the processing

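The count of genes changed between Mst1Gal3 and Gal3Ko was 8013, and 8065 with DESeq2, 7972 with limma-voom, 9303 without TMM factors and 7911 with a replicate block. Leaving out 1 replicate at a time gave 7573 to 7923. Requiring a 2-fold change left 1675. For the difference of responses, 100 genes became 193 with DESeq2 and 51 with a replicate block, and 52 to 189 with 1 replicate left out. Its 16 interferon response members became 9 with limma-voom quality weights, 9 with a replicate block, 9 without the 6 libraries of high atrial genes (chosen after seeing the data, which left 7124 changed genes), and 8 to 21 with 1 replicate left out. Among the 229 genes and 30 differences described, no called value changed sign, which was not examined for the other genes. Of 229 genes described 209 kept their side of the threshold in every alternative run, and of 30 differences 12 did. Plod2, Tgfbr1, Mgp and Frem1 are not in these counts. The causes were not tested. Same-numbered libraries of the 2 groups had correlations of deviations from -0.12 to 0.31, and Mst1Gal3 replicates 2 and 4 of the 5 matched their own number best. The main fit did not treat the numbers as pairs. This check left out the wt and MstTg libraries and does not settle whether the numbers mark pairs. At these depths, genes under about 1 CPM rest on few counts.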
